A study of Rattus norvegicus with 30 samples.

Results

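The genes that make, move and break down prostaglandins were followed through plantaris tendon repair in rats, with attention to the breakdown and transport genes and to the dose groups at 21 days. The 10 genes were chosen by name and looked up in the table of counts: Ptgs1, Ptgs2, Ptges, Ptges2, Ptges3 and Hpgds for synthesis, Hpgd and Ptgr1 for breakdown, and Slco2a1 and Abcc4 for transport. All 10 were among the 13124 genes listed and all 10 passed the filter on low counts, as did 12558 of the genes listed, but Hpgds passed only through its level in control tendons.

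RNA was sequenced from the plantaris tendons of 30 Sprague Dawley rats, with 1 rat per library. Control rats (n = 3) had no surgery and no compound. The other rats were 3-month-old males, like the controls, and their plantaris tendons were cut and sutured at once on both sides. They were then gavaged 2 times daily with vehicle (0 mg/kg) or with GSK2894631A at 2 or 6 mg/kg for 7 or 21 days. GSK2894631A is an inhibitor of hematopoietic prostaglandin D synthase, the enzyme encoded by Hpgds. The labels give 5, 4 and 3 tendons at 0, 2 and 6 mg/kg at 7 days (7D) and 5 tendons per dose at 21 days (21D). There was no operated group without suture and no unoperated group given the compound, so the cut, the suture and the gavage cannot be told apart against control tendons.

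Prostaglandins are lipid mediators made from arachidonic acid, which phospholipases release from membranes. The cyclooxygenases, encoded by Ptgs1 and Ptgs2, turn it into prostaglandin H2, and terminal synthases turn that into prostaglandin E2, D2 and others. The signal ends when the prostaglandin transporter, encoded by Slco2a1, carries the molecule into a cell and 15-hydroxyprostaglandin dehydrogenase, encoded by Hpgd, oxidises it there, after which the reductase encoded by Ptgr1 can act on the product. Abcc4 encodes an efflux pump that can carry prostaglandins out of cells. In injured tissue prostaglandin E2 and its relatives are known for pain, swelling and the recruitment of leukocytes.

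RefSeq holds a start-site window for 7 of the 10 genes on rat assembly GRCr8, and the 250 bases before the start are shown for Ptgs2, Ptges and Hpgd, which were called higher in all repaired groups, for Slco2a1, which was called higher at 7D 0 and 6 mg/kg, and for Ptgs1, which was not called against control in any group. Each runs 5′ to 3′ on the strand of the gene, and capitals mark the motif matches. Coordinates are of GRCr8 and not of the rn6 build on which the reads were counted.
Ptgs2 (chr13:64713813-64714062, + strand): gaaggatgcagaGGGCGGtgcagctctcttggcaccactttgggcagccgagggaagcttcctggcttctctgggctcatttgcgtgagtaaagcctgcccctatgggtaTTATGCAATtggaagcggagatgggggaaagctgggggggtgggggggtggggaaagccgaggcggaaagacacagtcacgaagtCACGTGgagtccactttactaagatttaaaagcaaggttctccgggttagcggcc
Ptges (chr3:34586988-34587237, - strand): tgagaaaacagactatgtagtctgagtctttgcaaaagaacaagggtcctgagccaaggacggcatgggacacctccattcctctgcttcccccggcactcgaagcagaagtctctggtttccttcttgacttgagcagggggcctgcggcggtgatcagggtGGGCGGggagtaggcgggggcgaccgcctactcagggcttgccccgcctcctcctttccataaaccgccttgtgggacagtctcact
Hpgd (chr16:39034832-39035081, - strand): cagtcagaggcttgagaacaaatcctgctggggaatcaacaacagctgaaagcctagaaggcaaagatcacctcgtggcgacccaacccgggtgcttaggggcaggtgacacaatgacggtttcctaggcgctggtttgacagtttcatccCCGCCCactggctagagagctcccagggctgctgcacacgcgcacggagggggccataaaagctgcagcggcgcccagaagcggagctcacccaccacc
Slco2a1 (chr8:112467489-112467738, + strand): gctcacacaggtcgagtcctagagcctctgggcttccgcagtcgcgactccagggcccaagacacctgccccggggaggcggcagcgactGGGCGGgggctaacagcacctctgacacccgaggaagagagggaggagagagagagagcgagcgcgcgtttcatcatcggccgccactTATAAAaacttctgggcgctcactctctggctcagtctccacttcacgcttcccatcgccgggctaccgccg
Ptgs1 (chr3:39981169-39981418, + strand): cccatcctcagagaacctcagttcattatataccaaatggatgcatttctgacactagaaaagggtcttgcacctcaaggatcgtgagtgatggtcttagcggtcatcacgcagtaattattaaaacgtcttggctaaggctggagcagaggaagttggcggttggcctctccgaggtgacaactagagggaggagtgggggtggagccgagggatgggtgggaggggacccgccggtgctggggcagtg
The motifs searched, on both strands, were the TATA box, spelled TATAAA, the E-box, spelled CACGTG, a C/EBP-type site, spelled TTNNGCAAT, and an NF-kappaB-type site. The AP-1 site was searched as TGANTCA and the GC box as GGGCGG, and no match overlapped another. The C/EBP-type letters stood 140 to 132 bases before the start of Ptgs2 and the E-box 55 to 50 bases before it. Those motifs occurred in 2.04% and 5.59% of the 33469 windows of the same length in the table, and among the 7 genes in Ptgs2 alone. TATAAA was found 72 to 67 bases before the start of Slco2a1, in 1 of the 7 windows, against 12.9% of all windows. A GC box was in 6 of the 7 windows, all but that of Ptgs1, and in 30.5% of all windows. The NF-kappaB-type and AP-1 letters were in none of the 7, against 4.53% and 6.34% of all windows. A match is a description of the letters and not a binding site.

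Total counts ranged from 12405741 to 49909374 per tendon, and 3 counts corresponded to 0.0601 to 0.242 CPM (counts scaled to the total of the library). Levels below are CPM scaled by the trimmed mean of M values (TMM), which compares tendons for a given gene, and levels of different genes are not compared because no transcript lengths were used. Differences were tested by edgeR's quasi-likelihood test over all 30 tendons with Benjamini-Hochberg adjustment over 12558 genes, and called at an adjusted p under 0.05. Skeletal muscle genes took 19.9 to 28.2% of the counts in control tendons. Their share was 0.178 to 1.32% in the 7D 0 mg/kg group, 0.00938 to 0.0124% in both compound groups at 7 days, while 21D tendons held 0.0679 to 9.95%. Tendon markers were present in every tendon, with 8 of 9 listed and a summed level of 8987 CPM or more. In whole tissue, fewer cells of a type and less RNA per cell cannot be told apart.

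Compared to control tendons, 4 of the 10 genes rose and 2 fell in the 7D 0 mg/kg group, where 35.8% of all genes tested were called higher and 35.6% lower (71.4% in all). The counts were 4 up and 1 down in both the 7D 2 mg/kg group (35.8% and 34.0% of all genes, 69.7% in all) and the 7D 6 mg/kg group (34.1% and 33.8%, 67.9% in all). At 21 days they were 3 up and 1 down at 0 mg/kg (32.2% and 33.7%, 65.9% in all), 4 up and 2 down at 2 mg/kg (33.8% and 35.3%, 69.1% in all), and 3 up and 1 down at 6 mg/kg (30.8% and 33.3%, 64.1% in all). Ptgs2, Ptges and Hpgd were higher and Ptges2 lower in all 6 repaired groups. These shares are close to or below the background, so the number of genes called says nothing particular about this set. Scaling by library size alone moved the split of all calls against control from 48.0 to 51.3% higher to 74.1 to 77.9% higher, and Ptgs2, Ptges and Hpgd stayed higher and Ptges2 lower in all 6 groups under it. The 6 comparisons share the same 3 control tendons.

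**Figure D1:**
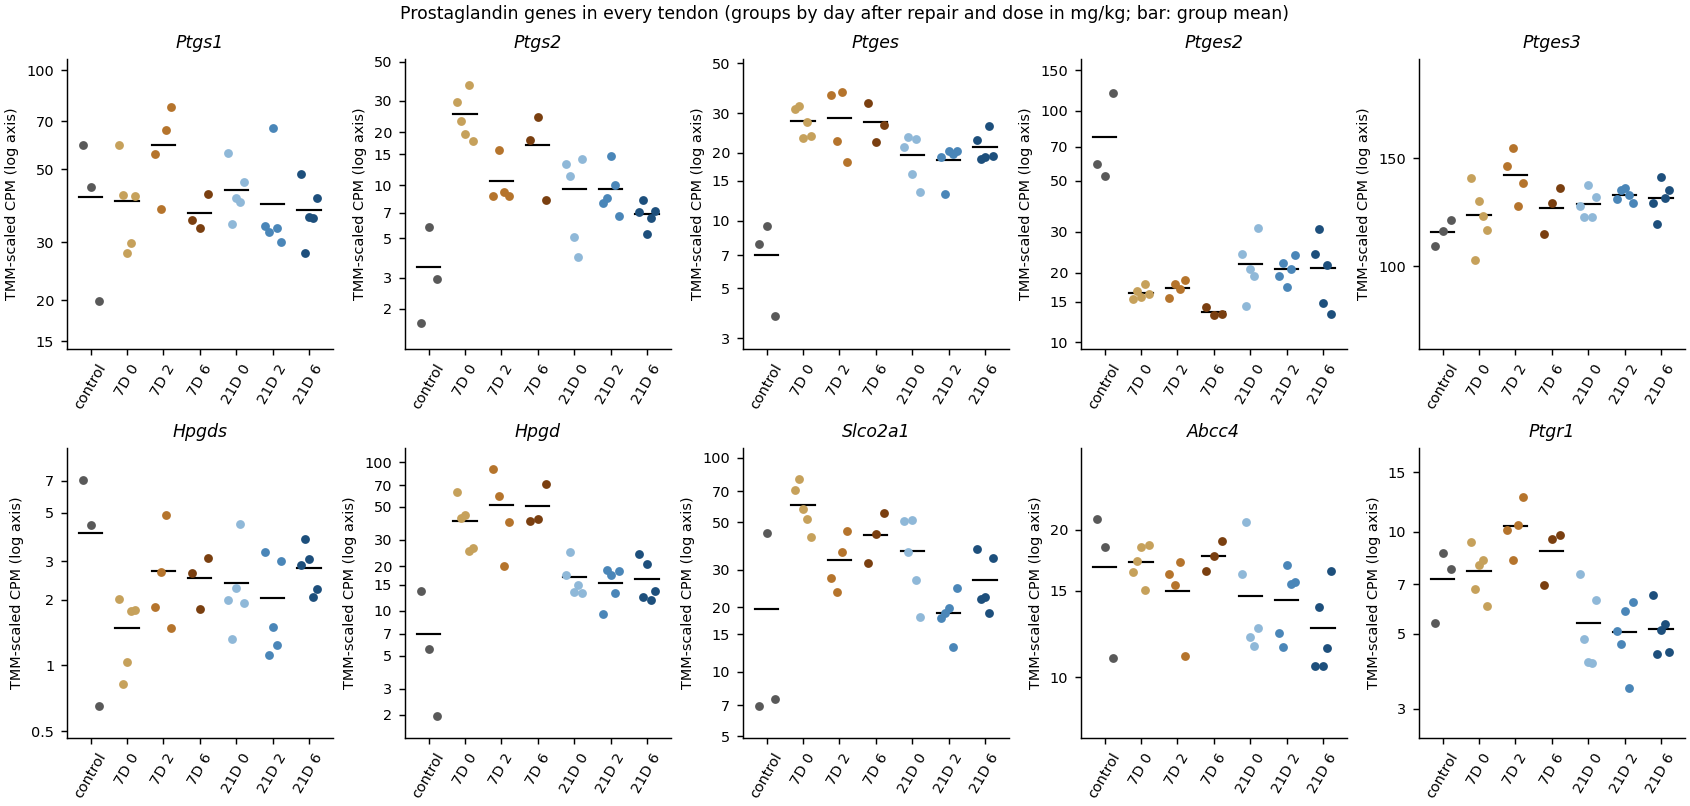
TMM-scaled CPM (log axis) of the 10 genes, with a point for each of the 30 tendons and a bar at each group mean, for control tendons and for 7D and 21D tendons at 0, 2 and 6 mg/kg. Every control tendon lies below every repaired tendon for Ptges and above every repaired tendon for Ptges2.

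The constitutive cyclooxygenase gene Ptgs1 was not called against control in any group. It was 59.1, 44.1 and 19.9 CPM in control tendons and 59.3, 41.7, 27.8, 29.8 and 41.5 CPM in 7D 0 mg/kg tendons. In the other groups it ran from 27.7 to 77.2 CPM. All neighbours in the order of group means overlapped, and the log2 fold changes against control lay between -0.16 and 0.52, with none called (adjusted p of 0.146 or more).

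The inducible cyclooxygenase gene Ptgs2 was 1.65, 5.77 and 2.94 CPM in control tendons. It was 29.7, 23.1, 19.5, 37.0 and 17.8 CPM at 7D 0 mg/kg, 8.66, 15.8, 9.18 and 8.67 CPM at 7D 2 mg/kg, and 18.0, 24.3 and 8.21 CPM at 7D 6 mg/kg. No tendon at 7 days was as low as any control tendon. The log2 fold changes against control were 2.87 ± 0.46 (SE; adjusted p = 6.23e-06), 1.60 ± 0.45 (adjusted p = 0.00290) and 2.26 ± 0.48 (adjusted p = 0.000196) at 0, 2 and 6 mg/kg. At 21 days Ptgs2 was 13.2, 11.3, 5.12, 3.93 and 14.0 CPM at 0 mg/kg, 7.89, 8.42, 14.7, 10.01 and 6.73 CPM at 2 mg/kg, and 7.07, 8.23, 5.26, 6.56 and 7.18 CPM at 6 mg/kg. Here the 0 and 6 mg/kg groups overlapped with control tendons and the 2 mg/kg group did not. The log2 fold changes were 1.45 ± 0.44 (adjusted p = 0.00534), 1.45 ± 0.44 (adjusted p = 0.00478) and 0.98 ± 0.43 (adjusted p = 0.0494). The call at 21D 6 mg/kg was lost on leaving out any of 6 of the 8 tendons compared, among them control replicates 2 and 4, and without control replicate 2 no 21D call remained, with adjusted p of 0.0551, 0.0558 and 0.284.

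Ptges, which encodes the inducible microsomal prostaglandin E synthase, rose in every repaired group. Control tendons held 7.83, 9.42 and 3.76 CPM. The 7D tendons held 31.4, 32.1, 23.3, 27.4 and 23.8 CPM at 0 mg/kg, 36.0, 22.5, 37.2 and 18.1 CPM at 2 mg/kg, and 33.3, 22.3 and 26.4 CPM at 6 mg/kg. The 21D tendons ran from 13.1 to 26.3 CPM, still above all control tendons. The log2 fold changes were 1.96 ± 0.27, 2.01 ± 0.28 and 1.95 ± 0.29 at 7 days (adjusted p of 2.58e-06 or less) and 1.46 ± 0.27, 1.39 ± 0.27 and 1.58 ± 0.27 at 21 days (adjusted p of 6.46e-05 or less). All 6 calls held in each alternative run and on leaving out any tendon.

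Ptges2, a membrane-associated enzyme first described as a prostaglandin E synthase, moved the other way. It was 58.7, 52.2 and 119.6 CPM in control tendons, 15.4, 16.7, 15.7, 17.9 and 16.3 CPM at 7D 0 mg/kg, and 13.1 to 18.6 CPM in the 7 tendons at 7D 2 and 6 mg/kg. At 21 days it was 24.1, 14.3, 20.7, 19.4 and 31.1 CPM at 0 mg/kg, 19.3, 21.9, 17.4, 20.8 and 23.9 CPM at 2 mg/kg, and 24.1, 30.9, 14.8, 21.5 and 13.3 CPM at 6 mg/kg. The highest repaired tendon held 31.1 CPM and the lowest control tendon 52.2 CPM. Against control the 7D groups had log2 fold changes of -2.23 ± 0.24, -2.15 ± 0.26 and -2.50 ± 0.29, and the 21D groups of -1.81 ± 0.24, -1.89 ± 0.24 and -1.87 ± 0.24 (adjusted p of 6.14e-07 or less). The muscle markers moved with it. All 29 in the table fell in each 7D group, with none at 0 in all tendons of a group and summed levels of 252400 to 471500 CPM in control tendons, and 23, 28 and 21 of 29 fell in the 21D groups. The control tendon with the most Ptges2 and the 21D tendons with the most at 0 and 6 mg/kg were those with the largest muscle share of their groups (28.2, 8.20 and 9.95%). This was not so for 21D 2 mg/kg tendons, of which the one with the largest share (3.34%) held 19.3 CPM, or at 7D 0 mg/kg, where the tendon with the largest share (1.32%) held 16.7 CPM and the highest was 17.9 CPM. At 7 days Ptges2 was 16.4 ± 1.01 CPM (SD, n = 5) in vehicle tendons with a muscle share of 0.178 to 1.32%. It was 17.3 ± 1.32 CPM (SD, n = 4) in the 2 mg/kg tendons, with a share of 0.00938 to 0.0114%. The part of muscle RNA in the fall against control was not tested.

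Ptges3, the cytosolic synthase that is also the p23 co-chaperone of Hsp90, was the steadiest of the 10, at 102 to 156 CPM in all 30 tendons. Its highest group mean was only 1.24 times its lowest. It was called higher in the 7D 2 mg/kg group, at 146, 156, 125 and 137 CPM against 108, 114 and 119 CPM in control tendons (log2 fold change 0.31 ± 0.09, adjusted p = 0.00458). It was also called in the 21D 2 mg/kg group, at 127 to 134 CPM (0.20 ± 0.09, adjusted p = 0.0449). Both calls were lost without control replicate 2, with adjusted p of 0.0755 and 0.463, and the second was lost in 5 of the 10 alternatives.

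Hpgds, the target of the compound and the source of prostaglandin D2 in mast cells and other hematopoietic cells, had low counts, 8 to 150 per tendon. Control tendons held 7.08, 4.37 and 0.654 CPM, so they spanned a wider range than all repaired tendons. The 7D tendons held 2.00, 0.822, 1.04, 1.77 and 1.79 CPM at 0 mg/kg, 1.84, 2.66, 4.86 and 1.48 CPM at 2 mg/kg, and 2.64, 1.82 and 3.10 CPM at 6 mg/kg. At 21 days it was 1.98, 1.32, 2.27, 4.45 and 1.93 CPM at 0 mg/kg, 3.31, 1.12, 1.495, 1.23 and 2.999 CPM at 2 mg/kg, and 2.88, 3.80, 3.07, 2.05 and 2.23 CPM at 6 mg/kg. Every repaired group overlapped with the control tendons. Hpgds was called lower at 7D 0 mg/kg (log2 fold change -1.46 ± 0.50, adjusted p = 0.0121), but it entered the test only because of the control group, so that call is a description. It was lost with library size only (adjusted p = 0.0995), limma-trend (0.116) and a fit of the compared groups only (0.0549). Without control replicate 4, the lowest of the control tendons, Hpgds was called lower in the 7D 2 and 6 mg/kg and the 21D 0 and 2 mg/kg groups as well. Leaving that tendon out raises the control level through which Hpgds entered the test. Those calls are therefore descriptions too and add no support to a fall. Without control replicate 2, or without control replicate 3, the control mean before TMM scaling was under 3 CPM. Hpgds then left the test, and no call could be made. Mast cell markers, of which 10 of 13 were in the table with none at 0 in all tendons of a group, summed to 21.3 to 140.2 CPM in control tendons and 98.0 to 238 CPM at 7 days. The control tendon with the most Hpgds had the least of them. Macrophage markers summed to 2077, 1532 and 462 CPM in the control tendons, in the order of Hpgds. Their sums were higher at 7 days (2345 to 5969 CPM), where Hpgds was not. Control replicate 4, with the least Hpgds, also had the largest muscle share (28.2%). The part of these cell types in the level of Hpgds was not tested.

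Of the breakdown genes, Hpgd rose the most. It was 13.5, 5.57 and 1.96 CPM in control tendons. At 7 days it was 63.3, 41.9, 44.4, 25.1 and 26.4 CPM at 0 mg/kg, 89.4, 58.8, 19.9 and 39.4 CPM at 2 mg/kg, and 40.2, 41.6 and 71.6 CPM at 6 mg/kg. The lowest of these 12 tendons was above the highest control tendon. The log2 fold changes were 2.49 ± 0.50 (adjusted p = 8.95e-05), 2.86 ± 0.52 (adjusted p = 2.87e-05) and 2.84 ± 0.53 (adjusted p = 4.86e-05), which are 5.63, 7.28 and 7.16 times the control level. These calls held in all alternatives and without any single tendon.

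At 21 days Hpgd was lower, but still above the control mean. It was 17.3, 25.1, 13.4, 14.9 and 13.2 CPM at 0 mg/kg, 9.46, 18.8, 17.4, 13.1 and 18.5 CPM at 2 mg/kg, and 24.002, 12.4, 20.7, 11.8 and 13.5 CPM at 6 mg/kg. In each dose group at least 1 tendon lay at or below the highest control tendon. The log2 fold changes against control were 1.23 ± 0.47 (adjusted p = 0.0243), 1.11 ± 0.47 (adjusted p = 0.0377) and 1.203 ± 0.47 (adjusted p = 0.0283). Each of these calls was lost without control replicate 3 and without control replicate 4, with adjusted p of 0.0819 to 0.246, and with a fit of the compared groups only.

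Ptgr1, the prostaglandin reductase, changed less. Control tendons held 5.38, 8.66 and 7.76 CPM. The 7D tendons held 9.33, 6.80, 8.00, 8.23 and 6.05 CPM at 0 mg/kg, 10.1, 8.24, 10.5 and 12.7 CPM at 2 mg/kg, and 6.96, 9.54 and 9.79 CPM at 6 mg/kg. None of the 7D groups was called against control (adjusted p of 0.0541 or more). At 21 days it was 7.501, 4.82, 4.12, 4.11 and 6.30 CPM at 0 mg/kg, 5.08, 4.66, 5.83, 3.45 and 6.21 CPM at 2 mg/kg, and 6.52, 4.35, 5.14, 5.34 and 4.42 CPM at 6 mg/kg. All 3 groups overlapped with control tendons, and the test called the 2 mg/kg group lower (log2 fold change -0.53 ± 0.22, adjusted p = 0.0362) and neither the 0 mg/kg group (-0.44 ± 0.22, adjusted p = 0.0841) nor the 6 mg/kg group (-0.50 ± 0.22, adjusted p = 0.0516). The intervals of the 3 estimates overlapped, and the call at 2 mg/kg was lost in 4 of 10 alternatives and without either control replicate 3 or 4. With library size only the difference was gone (0.00 on the log2 scale, adjusted p = 0.994).

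Slco2a1, the uptake transporter, was the most uneven of the genes in control tendons, at 6.89, 44.4 and 7.43 CPM. The 7D tendons held 70.5, 79.8, 57.7, 51.8 and 42.7 CPM at 0 mg/kg, 27.6, 23.6, 36.4 and 45.4 CPM at 2 mg/kg, and 32.3, 44.2 and 55.0 CPM at 6 mg/kg. It rose at 7D 0 mg/kg (log2 fold change 1.61 ± 0.46, adjusted p = 0.00311) and 7D 6 mg/kg (1.15 ± 0.49, adjusted p = 0.0408), whereas the 7D 2 mg/kg value was 0.75 ± 0.46 (adjusted p = 0.151). At 21 days it was 51.0, 36.3, 51.2, 26.8 and 18.1 CPM at 0 mg/kg, 17.8, 18.9, 19.8, 13.1 and 24.6 CPM at 2 mg/kg, and 37.7, 21.9, 22.5, 18.8 and 34.2 CPM at 6 mg/kg, with no call (log2 fold changes 0.89, -0.07 and 0.45). The values moved most with 1 library. Without control replicate 3, the tendon at 44.4 CPM, Slco2a1 was called higher in all 6 groups, by 3.11, 2.23 and 2.63 on the log2 scale at 7D 0, 2 and 6 mg/kg, and by 2.40, 1.44 and 1.94 at 21D 0, 2 and 6 mg/kg. The call at 7D 6 mg/kg was lost on leaving out control replicate 2 (adjusted p = 0.222), control replicate 4 (0.216), or either 7D 6 mg/kg replicate 4 (0.0691) or 5 (0.128). Endothelial markers, 10 of 12 in the table and none at 0 in all tendons of a group, summed to 275, 666 and 953 CPM in the control tendons and to 779 to 1199 CPM at 7D 0 mg/kg. Control replicate 3, with the most Slco2a1 of the control tendons, held the middle of those 3 sums, and the part of endothelial RNA in the level of Slco2a1 was not tested.

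Abcc4, the efflux pump, was at 21.0, 18.4 and 10.9 CPM in control tendons and ran from 10.5 to 20.7 CPM in the 27 repaired tendons. Every group overlapped with the control tendons, and no group was called. The log2 fold changes were 0.03 ± 0.20, -0.17 ± 0.21 and 0.07 ± 0.23 at 7 days and -0.20 ± 0.20, -0.23 ± 0.20 and -0.42 ± 0.20 (adjusted p = 0.0702 for the last) at 21D 0, 2 and 6 mg/kg. With TMM scaling the 95% confidence intervals at 7 days ran from -0.61 to 0.54, which leaves out a 2-fold change in either direction. With library size only the value at 7D 2 mg/kg turned to 0.36. Those at 21D 0, 2 and 6 mg/kg turned to 0.33, 0.27 and 0.05, without a call. Without control replicate 4, the lowest of the control tendons, all 3 groups at 21 days were called lower, at -0.48, -0.52 and -0.69 on the log2 scale.

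**Figure D2:**
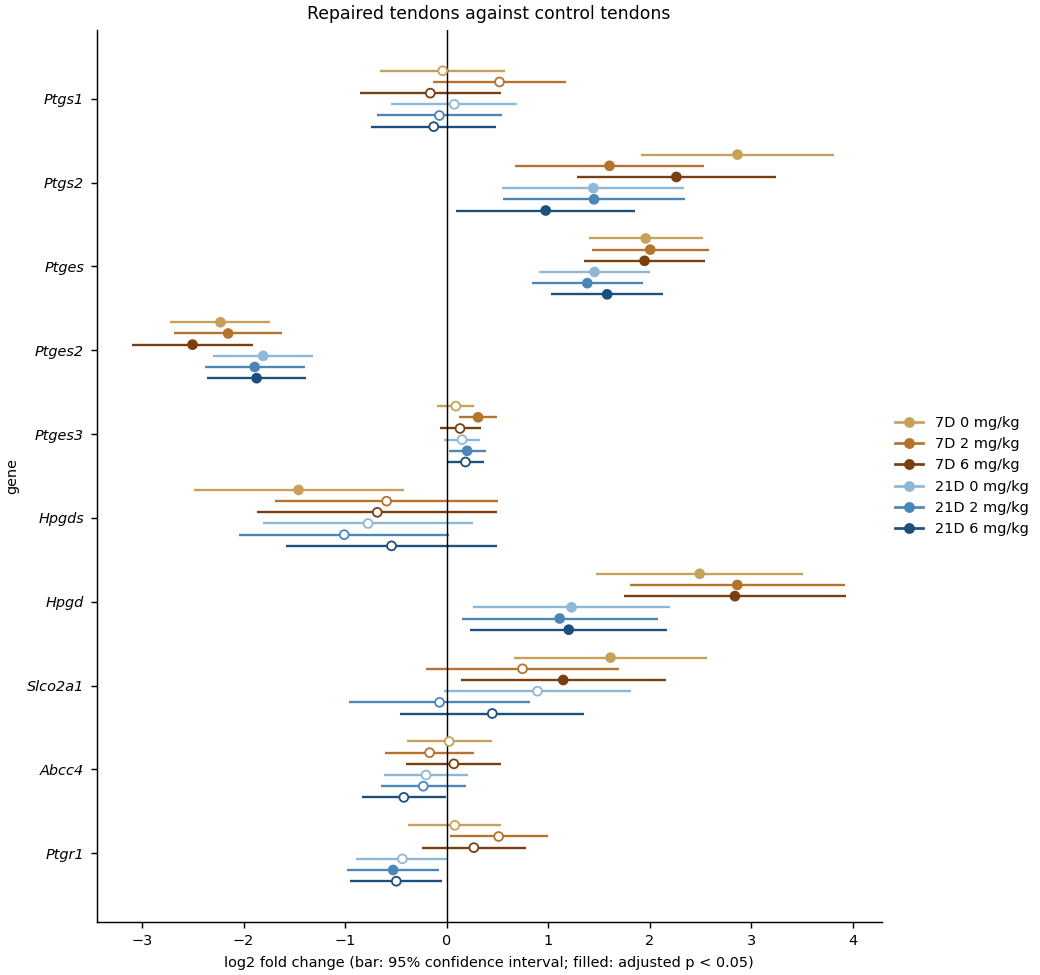
Log2 fold change of each gene (vertical axis) in the 6 repaired groups against control tendons, with 95% confidence intervals as bars and filled points where the adjusted p was under 0.05. Ptgs2, Ptges and Hpgd lie to the right of 0 and Ptges2 to the left in every group, while the intervals of Ptgs1 include 0 throughout.

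The dose groups also allowed these levels to be compared with and without the compound. At 21 days no gene of the set passed the test between any pair of doses or over the 3 doses, and by edgeR neither did any of the 12558 genes (0%). DESeq2 called 19 of all genes between 2 and 0 mg/kg, 1 between 6 and 0 mg/kg, 254 between 6 and 2 mg/kg and 138 over the 3 doses, none of them among the 10. Slco2a1 had the largest difference. Its 5 tendons at 21D 2 mg/kg (13.1 to 24.6 CPM) overlapped with those at 0 mg/kg (18.1 to 51.2 CPM), and the log2 fold change was -0.96 (95% confidence interval -1.74 to -0.19, unadjusted p = 0.0166 by edgeR, adjusted p = 0.479). It was 1 of the 10 genes at an unadjusted p under 0.05 in that comparison, as were 8.58% of all genes. There were 0 of the 10 between 6 and 0 mg/kg (6.45% of all genes) and 0 between 6 and 2 mg/kg (13.9%). Endothelial marker sums were 389 to 637 CPM at 21D 2 mg/kg and 578 to 1175 CPM at 21D 0 mg/kg, with 0 of 10 markers called and a median log2 fold change of -0.72, and their part in the Slco2a1 difference was not tested.

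For the other transport and breakdown genes the estimated 21D dose differences were small, with the widest intervals for Hpgd. Hpgd differed by -0.12 (-0.90 to 0.67) between 2 and 0 mg/kg and by -0.03 (-0.81 to 0.76) between 6 and 0 mg/kg. The same values were -0.09 (-0.49 to 0.30) and -0.06 (-0.46 to 0.33) for Ptgr1. Abcc4 gave -0.03 (-0.39 to 0.33) and -0.22 (-0.58 to 0.14). Of these, the intervals of Ptgr1 and Abcc4 leave out a 1.5-fold rise, while those of Hpgd include a 1.5-fold change in either direction.

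Among the synthesis genes at 21 days, the interval was narrowest for Ptges3, from -0.11 to 0.21 at 2 mg/kg and from -0.12 to 0.19 at 6 mg/kg. Ptges and Ptges2 differed from vehicle by 0.12 or less in size, with intervals between -0.52 and 0.56. Ptgs2 differed by 0.01 (-0.70 to 0.72) at 2 mg/kg and by -0.47 (-1.19 to 0.25) at 6 mg/kg. Hpgds, the target, differed by -0.23 (-1.15 to 0.68) and 0.23 (-0.68 to 1.14), intervals that include a change of 1.5-fold either way.

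At 7 days no gene of the set passed the test between doses either, where 2.36% of all genes were called between 2 and 0 mg/kg (0.908% higher and 1.45% lower), 0.39% between 6 and 0 mg/kg and 0% between 6 and 2 mg/kg. Ptgs2 was lower at 2 mg/kg, with 4 tendons at 8.66 to 15.8 CPM that did not overlap with the 5 vehicle tendons at 17.8 to 37.0 CPM. The log2 fold change was -1.26 (95% confidence interval -2.04 to -0.49, unadjusted p = 0.00254 by edgeR, adjusted p = 0.0762). It was called by DESeq2 (adjusted p = 0.0138) and by edgeR on the compared groups only (adjusted p = 0.0425), and over all alternatives the adjusted p ran from 0.0138 to 0.190. At 6 mg/kg the 3 tendons overlapped with vehicle, with a difference of -0.60 (-1.44 to 0.23). The values of the other genes named for breakdown and transport were 0.43 (0.02 to 0.85) for Ptgr1, 0.37 (-0.45 to 1.19) for Hpgd, -0.87 (-1.69 to -0.04) for Slco2a1 and -0.19 (-0.58 to 0.19) for Abcc4 between 2 and 0 mg/kg. In that comparison 4 of the 10 genes had an unadjusted p under 0.05 (Ptgs2, Ptges3, Slco2a1 and Ptgr1), as did 15.5% of all genes. The count was 0 between 6 and 0 mg/kg (5.94% of all genes) and 1, Ptgs1, between 6 and 2 mg/kg (7.94%).

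The muscle share also differed between the 7D dose groups, and 22 of 29 muscle markers were called lower at 2 than at 0 mg/kg. The share ran from 0.178 to 1.32% at 0 mg/kg and from 0.00938 to 0.0114% at 2 mg/kg, without overlap. A fit with this share as a covariate therefore extrapolates and cannot separate dose from muscle share. In a fit with the log2 muscle share as a covariate the Ptgs2 difference was -1.06 (adjusted p = 0.190), and Ptges2 was called higher at 2 mg/kg (0.94, adjusted p = 0.0106), where without the covariate it differed by 0.08 (adjusted p = 0.913, and 0.0106 to 0.962 over the alternatives).

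**Figure D3:**
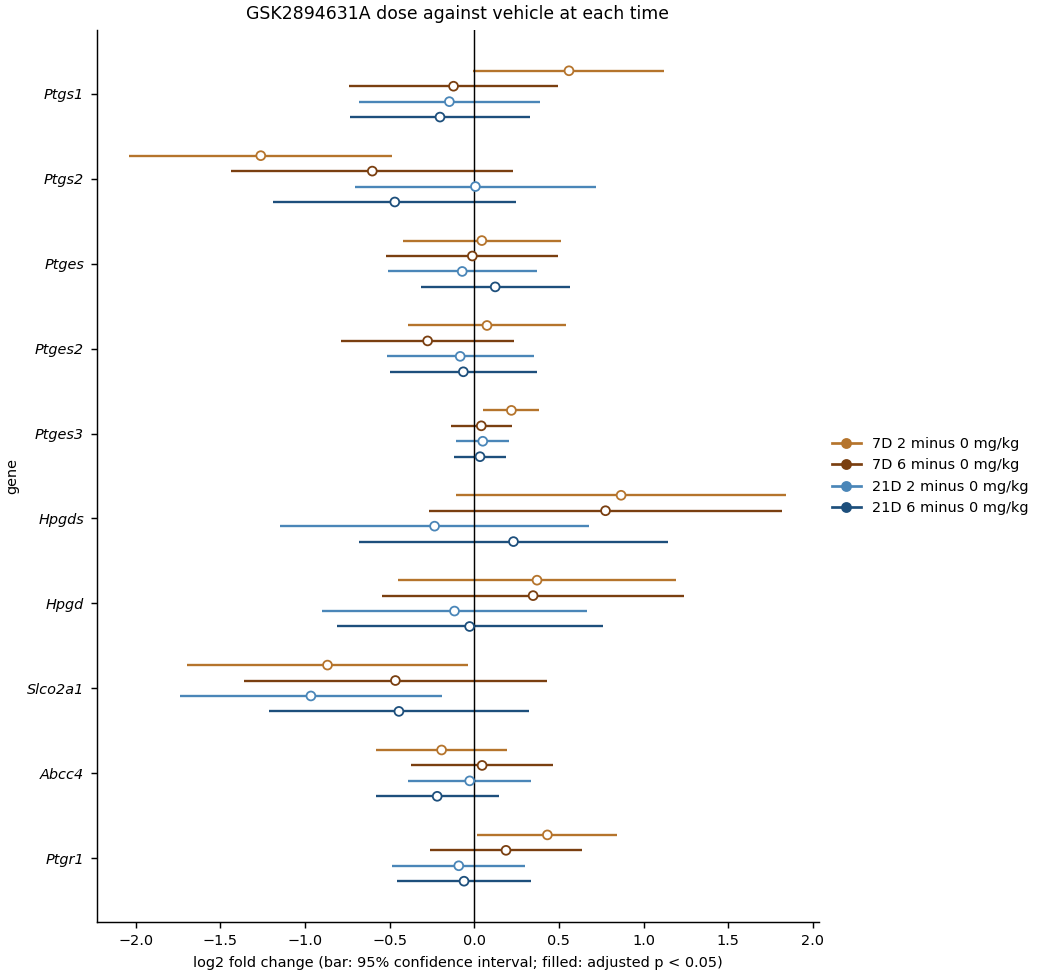
Log2 fold change of each gene (vertical axis) between a dose of GSK2894631A and vehicle at 7 or 21 days, with 95% confidence intervals as bars. No point is filled because none had an adjusted p under 0.05, and the interval of Ptgs2 at 7D 2 mg/kg lies wholly below 0.

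From 7 to 21 days the genes that were called went down, and they included both breakdown genes. Hpgd fell at 2 mg/kg (log2 fold change -1.75 ± 0.41, adjusted p = 0.00509) and 6 mg/kg (-1.64 ± 0.43, adjusted p = 0.0127), and the value at 0 mg/kg was -1.26 ± 0.39 (adjusted p = 0.0527). The 7D and 21D tendons did not overlap at any dose. Ptgr1 fell at 2 mg/kg (-1.04 ± 0.20, adjusted p = 0.00125) and 6 mg/kg (-0.76 ± 0.22, adjusted p = 0.0211), again without overlap, and differed by -0.52 ± 0.19 (adjusted p = 0.101) at 0 mg/kg. Ptgs2 fell at 0 mg/kg (-1.42 ± 0.35, adjusted p = 0.0212) and 6 mg/kg (-1.29 ± 0.39, adjusted p = 0.0308), whereas its difference under 2 mg/kg was -0.15 ± 0.37 (adjusted p = 0.824). This made 1, 2 and 3 of the 10 genes lower and 0 higher at 0, 2 and 6 mg/kg, where 2.47%, 5.98% and 4.55% of all genes were lower, 2.88%, 7.09% and 8.54% higher and 5.35%, 13.1% and 13.1% called in all.

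Some of these calls rest on single tendons or on the fit. The Ptgs2 call at 0 mg/kg was lost without 7D 0 mg/kg replicate 4 (adjusted p = 0.0630) or 21D 0 mg/kg replicate 4 (0.0534), and that at 6 mg/kg without any of 5 of the 8 tendons. The Ptgr1 call at 6 mg/kg was lost without 7D 6 mg/kg replicates 4 (0.0869) or 5 (0.105) or 21D 6 mg/kg replicate 2 (0.0591), and that of Hpgd at 6 mg/kg without 7D 6 mg/kg replicate 5 (0.0957). The calls of both genes at 2 mg/kg held without any single tendon. With the muscle share as a covariate the Hpgd difference was -1.09 under the lower dose (adjusted p = 0.288) and -0.96 under the higher dose (adjusted p = 0.534). In these dose groups the share was 0.00938 to 0.0124% at 7 days and 0.345 to 9.95% at 21 days, without overlap. That fit therefore extrapolates and cannot separate time from muscle share. All 29 muscle markers were higher at 21 than at 7 days under both doses. Markers of other cells fell between these times. Of the adipocyte markers 6 of 6 fell at 2 mg/kg and 5 of 6 at 6 mg/kg, from 819 to 3814 CPM summed at 7 days to 239 to 792 CPM at 21 days. T cell markers fell in 3, 3 and 7 of 9 at 0, 2 and 6 mg/kg, neutrophil markers in 2, 2 and 3 of 5, and macrophage markers in 0, 1 and 2 of 10. All 3 B cell markers fell at 6 mg/kg, and 2 of 10 endothelial markers and 1 of 4 Schwann cell markers fell at 2 mg/kg. The part of these cells in the falls of Hpgd, Ptgr1 and Ptgs2 was not tested.

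Slco2a1 and Abcc4 were not called between times at any dose. Slco2a1 differed by -0.72 (95% confidence interval -1.49 to 0.05) in vehicle tendons, by -0.82 (-1.63 to -0.00373) under 2 mg/kg and by -0.70 (-1.57 to 0.17) under 6 mg/kg. The values for Abcc4 were -0.23 (-0.59 to 0.13), -0.06 (-0.45 to 0.32) and -0.49 (-0.91 to -0.08). No gene of the set differed in its dose effect between the times, against 0.223% of all genes at 2 mg/kg (0.183% higher and 0.0398% lower), 0.239% at 6 mg/kg and 0.39% over both. At an unadjusted p under 0.05 there was 1 gene of the 10 at 2 mg/kg (9.98% of all genes) and 0 at 6 mg/kg (3.48%). The smallest value was for Ptgs2 at 2 mg/kg, where the 21D minus 7D dose effect was 1.27 (95% confidence interval 0.22 to 2.31, unadjusted p = 0.0194 by edgeR, adjusted p = 0.375).

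Ratios of counts within a tendon do not depend on the scaling between tendons, and they are given without a test. The log2 ratio of Ptgs2 to Ptgs1 was -3.60 ± 1.34 (SD, n = 3) in control tendons, -0.65 ± 0.60 (n = 5) at 7D 0 mg/kg, -2.48 ± 0.84 (n = 4) at 7D 2 mg/kg and -1.25 ± 0.99 (n = 3) at 7D 6 mg/kg. At 21 days it was -2.34 ± 0.78, -2.02 ± 0.19 and -2.45 ± 0.42 (n = 5 each), between the control and the 7D vehicle values. The ratio of Ptges to Ptges2 went from -3.45 ± 1.34 in control tendons to 0.74 ± 0.23, 0.66 ± 0.61 and 0.996 ± 0.23 at 7 days and to -0.16 ± 0.73, -0.17 ± 0.36 and 0.07 ± 0.50 at 21 days, with no overlap between control and repaired tendons.

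For uptake against efflux, the log2 ratio of Slco2a1 to Abcc4 was -0.30 ± 1.45 in control tendons and 1.79 ± 0.40, 1.12 ± 0.64 and 1.28 ± 0.29 at 7D 0, 2 and 6 mg/kg. At 21 days the 2 mg/kg group was lowest, at 0.38 ± 0.40, beside 1.26 ± 0.63 in vehicle tendons and 1.07 ± 0.47 under 6 mg/kg, and all 3 groups overlapped. The ratio of the inducible cyclooxygenase to the breakdown enzyme, Ptgs2 to Hpgd, was -0.80 ± 1.94 in control tendons and -0.63 ± 0.71 at 7D 0 mg/kg. It was -2.14 ± 0.93 at 7D 2 mg/kg and -1.69 ± 1.26 at 7D 6 mg/kg, and -0.95 ± 0.80, -0.70 ± 0.56 and -1.22 ± 0.61 at 21D 0, 2 and 6 mg/kg. Control tendons alone covered -3.02 to 0.58, and the repaired tendons -3.37 to 0.56.

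**Figure D4:**
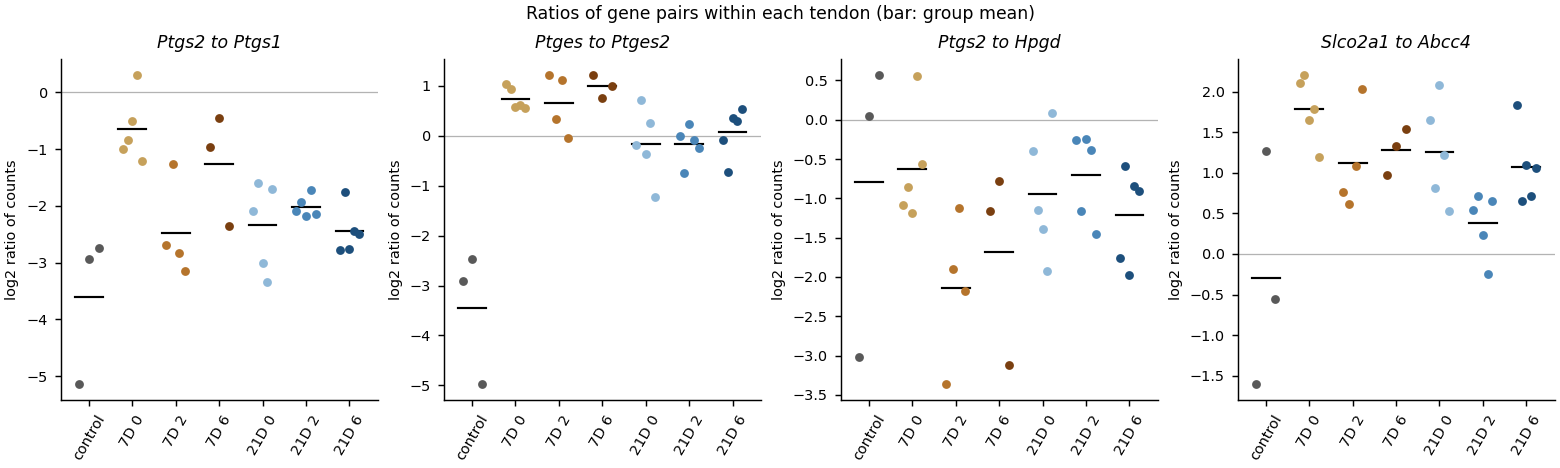
Log2 ratio of the counts of 2 genes within each tendon, with a point for each tendon and a bar at each group mean, for control tendons and for 7D and 21D tendons at 0, 2 and 6 mg/kg. The ratio of Ptges to Ptges2 is -2.47 or lower in all 3 control tendons and -1.22 or higher in all repaired tendons.

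**Figure D5:**
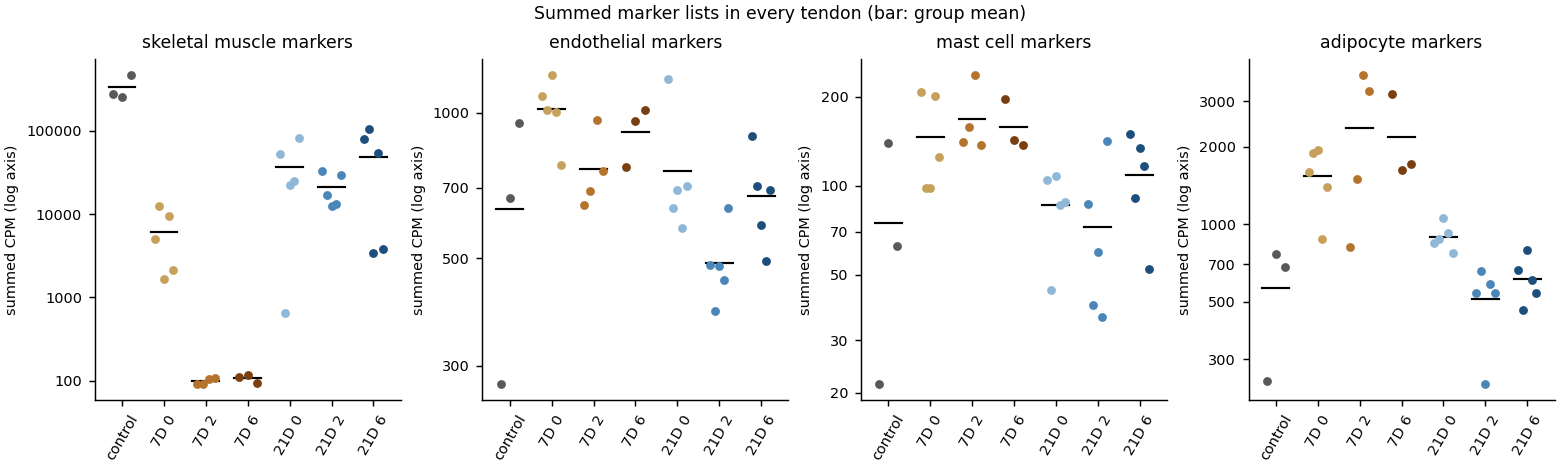
Summed CPM (log axis) of the skeletal muscle, endothelial, mast cell and adipocyte marker lists in each of the 30 tendons, with a bar at each group mean. Muscle markers sum to 90.8 to 116 CPM in all 7D 2 and 6 mg/kg tendons and to at least 252400 CPM in the control tendons.

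Cells of the blood, of nerve and of fat were followed by their markers too. Macrophage markers (10 of 12 in the table) summed to 462 to 2077 CPM in control tendons, 2345 to 5969 CPM at 7 days and 1546 to 7805 CPM at 21 days, with 7, 7 and 10 of 10 called higher than control at 7D 0, 2 and 6 mg/kg. All 9 T cell markers rose in each 7D group and 8 of 9 in each 21D group, and 3 of 3 B cell markers rose at 7 days, 1 of them being at 0 in all control tendons. Neutrophil markers (5 of 9 in the table) summed to 5.39 to 31.1 CPM in control tendons and 27.4 to 125 CPM at 7 days, with 3, 3 and 4 of 5 called higher. Platelet markers (4 of 6) summed to 27.8 to 213 CPM in control tendons and 183 to 608 CPM at 7 days, and Schwann cell markers (4 of 5) to 84.4 to 128 and 115 to 444 CPM. Adipocyte markers were called higher than control in 4, 6 and 5 of 6 at 7D 0, 2 and 6 mg/kg. The part of these cell types in the rises of Ptgs2, Ptges and Hpgd was not tested.

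A list of 38 further genes of the pathway was examined for context, of which 30 were tested. In the 7D 0 mg/kg group 13 of the 30 were higher and 9 lower than in control tendons, with a median log2 fold change of 0.02 beside 0.05 for all genes tested, and in the 21D 0 mg/kg group 12 were higher and 10 lower (medians -0.03 and 0.03). No gene of the list was called between doses at either time. Among the phospholipases and lipases that release arachidonic acid, 3 of 9 were higher and 3 lower at 7D 0 mg/kg. Pla2g4b, a cytosolic phospholipase A2, was 9.32 ± 2.13 CPM (SD, n = 5) there and 43.9 ± 16.2 CPM (n = 3) in control tendons (log2 fold change -2.23 ± 0.29 SE, adjusted p = 2.24e-07). The secreted phospholipase gene Pla2g2a, named by the rule on mean CPM, had a wide spread, at 309 ± 375 CPM and 612 ± 477 CPM, with no call at 7 days.

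Of the terminal synthases, 2 of 6 were higher and 2 lower at 7D 0 mg/kg. Fam213b, which encodes a prostamide and prostaglandin F synthase, fell from 87.9 ± 54.6 CPM in control tendons to 11.96 ± 0.909 CPM (-2.88 ± 0.33, adjusted p = 4.28e-08), and the aldo-keto reductase gene Akr1a1 was not called, at 603 ± 45.0 and 668 ± 103 CPM. The breakdown part had 1 of 4 genes higher and 2 lower at 7D 0 mg/kg. Its strongest change was in Ptgr2, which encodes a reductase of the same kind as Ptgr1 and went from 113 ± 29.9 CPM in control tendons to 30.6 ± 1.81 CPM at 7D 0 mg/kg (-1.89 ± 0.17, adjusted p = 1.32e-09). At 21D 0, 2 and 6 mg/kg it was also called lower than control, at -1.69, -1.87 and -1.49. Like Ptges2, these genes fell where the muscle markers fell, and the part of muscle RNA was not tested.

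In the transport part, 2 of 5 genes were higher and 2 lower at 7D 0 mg/kg, and 1 higher and 3 lower at 21D 2 and 6 mg/kg. The efflux pump gene Abcc1 fell from 60.6 ± 26.5 CPM in control tendons to 19.3 ± 2.04 CPM at 7D 0 mg/kg (-1.65 ± 0.22, adjusted p = 3.29e-07). Abcc5, another pump of that family, was at 101 ± 4.82 CPM in control tendons and was called lower at 21D 2 mg/kg (-0.44 ± 0.18, adjusted p = 0.0370) and 21D 6 mg/kg (-0.52 ± 0.18, adjusted p = 0.0159). Of the 6 receptors tested, 5 were called higher at 7D 0 mg/kg, 6 at 7D 2 mg/kg and 6 at 7D 6 mg/kg, beside 35.8, 35.8 and 34.1% of all genes, with median log2 fold changes of 1.502, 1.71 and 2.04 beside 0.05, 0.05 and 0.04 for all genes. At 21D 0, 2 and 6 mg/kg 4, 4 and 3 were called higher and the others were not called, with medians of 0.66, 0.79 and 0.55. Ptger4, a receptor of prostaglandin E2, was 2.42 ± 2.08 CPM in control tendons and 11.2 ± 2.48 CPM at 7D 0 mg/kg (2.27 ± 0.36, adjusted p = 5.28e-06). Ptger1, another of them, was 10.9 ± 0.815 and 19.98 ± 1.73 CPM (0.87 ± 0.15, adjusted p = 2.00e-05).

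The genes whose log2 CPM most resembled that of each member over the 30 tendons are given by Pearson's r, which is a description here because the tendons share group differences, scaling and muscle content. Slco2a1 was most like Plvap (r = 0.933), Selp (0.924) and Sele (0.906), which encode an endothelial diaphragm protein and adhesion molecules of activated endothelium, and within groups the values were 0.889, 0.845 and 0.821. Ptges2 was most like Gatd3a (0.986), Spsb3 (0.984) and Ecsit (0.983), at 0.953, 0.928 and 0.951 within groups. Hpgd was most like Pcsk5 (0.891), Slc39a8 (0.876) and the metallothionein gene Mt1 (0.869), and its within-group values were 0.5262, 0.473 and 0.555. Ptges was most like Vegfd (0.905), Siglec10 (0.903) and B3galnt1 (0.899), with 0.525, 0.524 and 0.511 within groups.

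For Ptgr1 the nearest genes were Akr1c14 (0.784), Calml3 (0.783) and Tspan15 (0.781), and for Abcc4 they were Nup98 (0.684), Fbxl20 (0.683) and Trrap (0.682). Ptgs2 was nearest to Nectin2 (0.799), Snai1 (0.796) and Yrdc (0.794), which dropped to 0.253, 0.329 and 0.378 within groups. Ptgs1 was nearest to Atp2a3 (0.785), AABR07002398.1 (0.721) and Nrip3 (0.719). Ptges3 was nearest to the ribosomal genes Rps27a (0.758) and Rps25 (0.742) and to LOC100360522 (0.747). Hpgds had the weakest leading value apart from Abcc4, with Fcmr (0.741), Csgalnact2 (0.680) and Asb1 (0.677), from counts low enough that sampling noise is part of each value. Within groups its values were higher, at 0.806, 0.7005 and 0.699.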

How the data were processed

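RNA sequencing counts of plantaris tendons from 30 rats were analysed. The authors used fastp for trimming and STAR for alignment to rn6, and deposited raw counts per Ensembl gene, without normalization. Whether counting used strand is not given in the sources used here. A further table deposited by the authors holds edgeR fold changes and p-values of their own comparisons, which were not used, and as other values the genomic width of each gene. The paper describes 4 removed samples, which would leave 4 tendons at 7D 6 mg/kg, whereas 3 are labelled so and 3 were used. Each library is 1 rat, so p-values measure the spread between rats of the cohort.

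The analysis used edgeR 4.0.16 under R 4.3.3. A gene was kept when its mean reached 3 CPM in any of the 7 groups (12558, with 566 removed). A quasi-likelihood model with a mean per group, TMM scaling and no covariate described all tendons together. Ratios used a pseudocount of 0.5 counts, and log2 CPM a prior count of 2. Totals are on the genes listed, intervals are at 95% confidence, and the floors in counts cover counting error only. No pair of tendons in a group agreed within sampling noise. Data were simulated for the 7D 0 mg/kg against control comparison (10975 genes). All groups had the control level, except for 100 genes changed 2-fold and 100 changed 4-fold at 7D 0 mg/kg. Of the genes changed 2-fold 70% were recovered and of those changed 4-fold 93%, and 6.86% of calls were false. The loss of muscle RNA was not simulated, and 71.4% of genes were called in the real comparison. These rates therefore do not carry over to it. Alternatives were RLE factors, library size only, muscle genes left out of the scaling, other filters, DESeq2 1.42.0, limma-trend (limma 3.58.1), a replicate block, the muscle share as a covariate between repaired groups, the compared groups only, a 1.5-fold minimum and leaving out each tendon.

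The genes, lists and tests were chosen with earlier results of these data known. The rule for named genes was all 10 members, per part of the pathway list the gene with the smallest adjusted p at 7D 0 mg/kg and the one with the highest mean CPM, and per member the 3 genes most correlated with it. Marker lists of macrophages, T cells, B cells, platelets and Schwann cells were also summed. Promoter windows were taken from RefSeq (GRCr8).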

Additional observations from a re-analysis of the deposited data

Results flagged for a closer look

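Single tendons that stood apart from their group were sought with Dixon's criterion for the 10 genes in the 5 groups of 4 or 5 tendons, and 3 of 50 gene and group pairs were flagged, where chance flags about 1 in 20. Ptgs1 in 21D 2 mg/kg replicate 3 was 66.7 CPM, and the next tendon of its group 33.6 CPM. Ptgs2 in 7D 2 mg/kg replicate 3 was 15.8 CPM, and the next 9.18 CPM. Ptges in 21D 2 mg/kg replicate 2 was 13.1 CPM, and the next lowest 19.2 CPM. Without the first of these tendons Ptgs1 was called lower at 21 than at 7 days at 2 mg/kg (log2 fold change -0.87, adjusted p = 0.0321), and without the second the Ptgs2 difference between 7D 2 and 0 mg/kg was -1.53 (adjusted p = 0.0505). The first also had the highest platelet marker sum of its group, at 863 CPM beside 282 CPM or less. In control tendons, too, the tendon with the most Ptgs1 had the highest platelet sum (59.1 and 213 CPM). The same held at 7D 0 mg/kg (59.3 and 488.5 CPM) and 7D 6 mg/kg (42.1 and 556.7 CPM). It also held at 21D 0 mg/kg (55.85 and 932.7 CPM) and 21D 6 mg/kg (48.4 and 553 CPM). At 7D 2 mg/kg, however, the tendon with the most Ptgs1 (77.2 CPM) held 404 CPM of platelet markers, and another 608 CPM. The part of platelet RNA in the level of Ptgs1 was not tested.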

How the results depend on the processing

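Among the 10 genes, the calls of Ptges and Ptges2 against control and those of Ptgs2 and Hpgd against control at 7 days held under every alternative that could be fitted. No dose difference of the 10 genes at 21 days was called under any alternative. Over all genes, the count between 21D 6 and 2 mg/kg went from 0 to 254 with DESeq2, 18 with the compared groups only, 18 with the muscle share as a covariate, 4 with 3 CPM required in every group and 3 with library size only. With library size only, 8 genes were called at 7D 2 mg/kg and 8 at 7D 6 mg/kg against control. That scaling moved the median of all genes by 0.559 and 0.588 on the log2 scale there. Over the 6 comparisons against control it moved it by 0.501 to 0.593. With the compared groups only, 2, 3 and 2 genes were called against control at 21D 0, 2 and 6 mg/kg, and 1 (Ptgs2) between 7D 2 and 0 mg/kg. DESeq2 called 1 gene (Ptgs2) between 7D 2 and 0 mg/kg and 2 between 21D and 7D at 0 mg/kg. With the muscle share as a covariate, 1 gene was called between 7D 2 and 0 mg/kg, 1 over the 7D doses, 1 in the dose by time term at 2 mg/kg and 0 between 21D and 7D at 6 mg/kg, and Ptges2 turned to -0.93 between 21D and 7D at 2 mg/kg. Muscle shares at 7D 0 mg/kg did not overlap with those at 7D 2 or 6 mg/kg. At 2 and 6 mg/kg they did not overlap between 7D and 21D either, so these covariate results are extrapolations. With at least 3 CPM required in every group, Ptgs2 and Hpgds were removed by the filter and 0 genes were called between 21D and 7D at 0 mg/kg.

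Leaving out single tendons gave 0 to 2 genes called between 21D and 7D at 0 mg/kg, 1 to 5 at 6 mg/kg, and 3 to 5 at 21D 2 mg/kg against control. The Slco2a1 difference at 21D 2 mg/kg against control ran from -0.55 to 1.44, the latter without control replicate 3. The replicate numbers do not pair the tendons (median correlation 0.00685 over 76 same-numbered pairs, and 6 of 30 tendons were closest to their own number), and the replicate block called 2 genes between 21D and 7D at 0 mg/kg. The cause of these changes was not tested unless named. Hpgds had 8 to 150 counts per tendon, and its SD was 24.99% (21D 6 mg/kg) to 79.96% (control) of the group mean. The part of counting error in that spread was not tested.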
